A study of Mus musculus with 6 samples.

Results

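Malat1 is the host gene of 4 circRNAs in the study's lists of circRNAs whose mean signal in diabetic-derived neutrophils was more than 1.5-fold above or below that in non-diabetic-derived neutrophils. The 4 were chosen by host gene from these lists, where 206 circRNAs were listed as higher and 247 as lower out of 14236 probes on the array. All 4 were listed as lower. Their names are mmu_circRNA_32197 and mmu_circRNA_013905, classed as sense overlapping, mmu_circRNA_009696, classed as intronic, and mmu_circRNA_001389, classed as antisense. All lie on chromosome 19. Because the lists were made from the difference between the groups, that difference is given here as a description and without a test. How many other probes of the array lie at Malat1 is not known here, since only listed circRNAs have names.

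Ly-6G bead-isolated bone marrow neutrophils came from male mice of the strain BKS.Cg-Dock7m +/+ Leprdb/J, which the study obtained as Leprdb/db and Leprdb/+ animals and used at 8 weeks of age. Leprdb is a defective leptin receptor allele, and mice homozygous for it become obese and diabetic. The 3 non-db pools (1, 2 and 3) and the 3 db pools (4, 5 and 6) each combined the marrow of 3 mice. The spread between pools holds that between groups of animals together with that of handling and arrays, which cannot be told apart here. RNA was digested with RNase R, which degrades linear RNA, labelled with Cy3 and hybridized to 1 circRNA array per pool. In bulk RNA of this kind, fewer cells of a type and less RNA per cell cannot be told apart. Of 12 neutrophil marker genes, and of short marker lists for 5 other marrow cell types, 0 were among the array's 44 named linear transcript probes or the host genes of the listed circRNAs, so the neutrophil label was not checked.

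Malat1 is a long, abundant non-coding RNA that is kept in the nucleus, where it gathers in nuclear speckles beside pre-mRNA splicing factors. Its 3′ end is cut to release a small tRNA-like RNA, mascRNA, and the neighbouring gene Neat1 makes the RNA scaffold of paraspeckles. A circRNA forms when a downstream splice site is joined back to an upstream one, and the closed ring has no free end for RNase R to attack. An antisense circRNA is read from the opposite strand of the locus.

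The Malat1 promoter is shown because the 4 circRNAs of the locus rose and fell together from pool to pool, as described further on. It is the promoter of the sense transcript, while mmu_circRNA_001389 is antisense. Its part in the pattern was not tested. The 300 bases are those of RefSeq at chr19:5802623-5802922 on the minus strand of GRCm38.p6, from 250 bases before to 50 bases after the transcript start, 5′ to 3′ along Malat1. Capitals mark matches to TGACG, the half-site of the cAMP response element, and to ACGTG, the core of the hypoxia response element, on either strand, so that a TGACG of the opposite strand reads as its reverse complement.

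Malat1 promoter: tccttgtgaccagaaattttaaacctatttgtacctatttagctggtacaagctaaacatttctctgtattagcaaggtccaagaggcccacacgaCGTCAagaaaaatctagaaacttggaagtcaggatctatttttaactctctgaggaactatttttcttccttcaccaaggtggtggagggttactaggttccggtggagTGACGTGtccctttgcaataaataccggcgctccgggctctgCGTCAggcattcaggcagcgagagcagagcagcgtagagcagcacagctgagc

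TGACG occurred 3 times, starting 154, 45 and 3 bases before the transcript start, and ACGTG once, 43 bases before it and overlapping the TGACG at 45. The former motif was in 20.8% and the latter in 19.6% of the 32851 promoters of the same length in the RefSeq table. A match to AGGAAG, the core bound by the myeloid factor PU.1, began 89 bases before the start on the opposite strand, and 35.4% of promoters held one. The full cAMP response element TGACGTCA (1.79% of promoters), the C/EBP motif TTGCNNAA (10.8%), the AP-1 motif TGANTCA (7.81%) and the TATA box TATAAA (13.6%) had no match in this window on either strand. These are descriptions of letters, and the arrays do not measure binding.

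For the antisense circRNA mmu_circRNA_001389, the study named 5 miRNAs with predicted sites and carried mmu-miR-450b-5p into a separate measurement. A circRNA with sites for a miRNA can bind it as a sponge. The mature sequences are shown so that the candidate partners of the only antisense member can be read. RefSeq (GRCm38.p6) held 3 of the 5, and capitals mark the seed, bases 2 to 8, with which a miRNA pairs to its target. mmu-miR-6982-3p and mmu-miR-1948-3p are named only.

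mmu-miR-450b-5p: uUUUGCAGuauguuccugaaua

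mmu-miR-7085-3p: uAGCUGGCcucuccccaccuuc

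mmu-miR-7664-3p: uCUCUUAGgcuggguuaacuaau

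No seed was shared among these. The arrays measured no miRNA.

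The 4 Malat1 circRNAs varied far more between pools than between the groups, and in nearly the same order. For all 4, the non-db pool 3 was the highest of the 6 pools, the db pool 6 the second highest and the db pool 5 the lowest. The db and non-db pools overlapped for all 4, since pool 6 lay above pools 1 and 2. The share of all probes kept with overlapping groups is not given, so nothing particular to Malat1 is read from the overlap. For 3 of the 4 the whole order was the same, from pool 3 through pools 6, 1, 4 and 2 to pool 5. For mmu_circRNA_013905 pools 1 and 4 changed places.

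mmu_circRNA_32197 measured 10.30, 9.61 and 13.01 in non-db pools 1, 2 and 3 and 10.03, 8.73 and 10.35 in db pools 4, 5 and 6, as deposited log2 signal. Pool 3 stood 6.30-fold above pool 6, the next highest, while pools 1, 4 and 6 lay close together. The db mean was 9.71 ± 0.86 and the non-db mean 10.97 ± 1.80 (SD over 3 pools), which gave a log2 difference of -1.27 with a standard error of 1.15. This was the largest fall of the 14236 probes, at 2.41-fold.

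mmu_circRNA_009696, the intronic member, measured 11.64, 11.01 and 14.14 in the non-db pools and 11.37, 10.02 and 12.18 in the db pools. Pool 3 was 3.91-fold above pool 6. The means were 11.19 ± 1.09 for db and 12.27 ± 1.66 for non-db (SD over 3 pools), and differed by -1.08 log2 units (standard error 1.14). The fall of 2.11-fold ranked 8 among all probes.

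mmu_circRNA_013905, the other sense overlapping member, measured 12.39, 11.54 and 15.40 in the non-db pools and 12.48, 10.92 and 13.98 in the db pools. Here pool 6 was nearer to pool 3, which was 2.68-fold above it, and both stood apart from the other pools. The log2 difference of -0.65 was under its standard error of 1.47, between means of 12.46 ± 1.53 for db and 13.11 ± 2.03 for non-db (SD over 3 pools). The fall was 1.57-fold and ranked 165 among all probes.

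mmu_circRNA_001389, the antisense member, measured 7.0, 6.07 and 7.74 in the non-db pools and 6.26, 5.72 and 7.03 in the db pools. The order of the pools was that of mmu_circRNA_32197, over a narrower span. Pools 1 and 6 were almost level. The db mean of 6.33 ± 0.66 and the non-db mean of 6.93 ± 0.84 (SD over 3 pools) differed by -0.60 log2 units (standard error 0.62), a fall of 1.52-fold. Its fall ranked 224 among all probes, and it is the Malat1 circRNA nearest to the 1.5-fold threshold. The last listed circRNA inside it, mmu_circRNA_37324, was 1.500024-fold lower, and the first probe outside it, which has no name, 1.499386-fold lower.

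**Figure D1:**
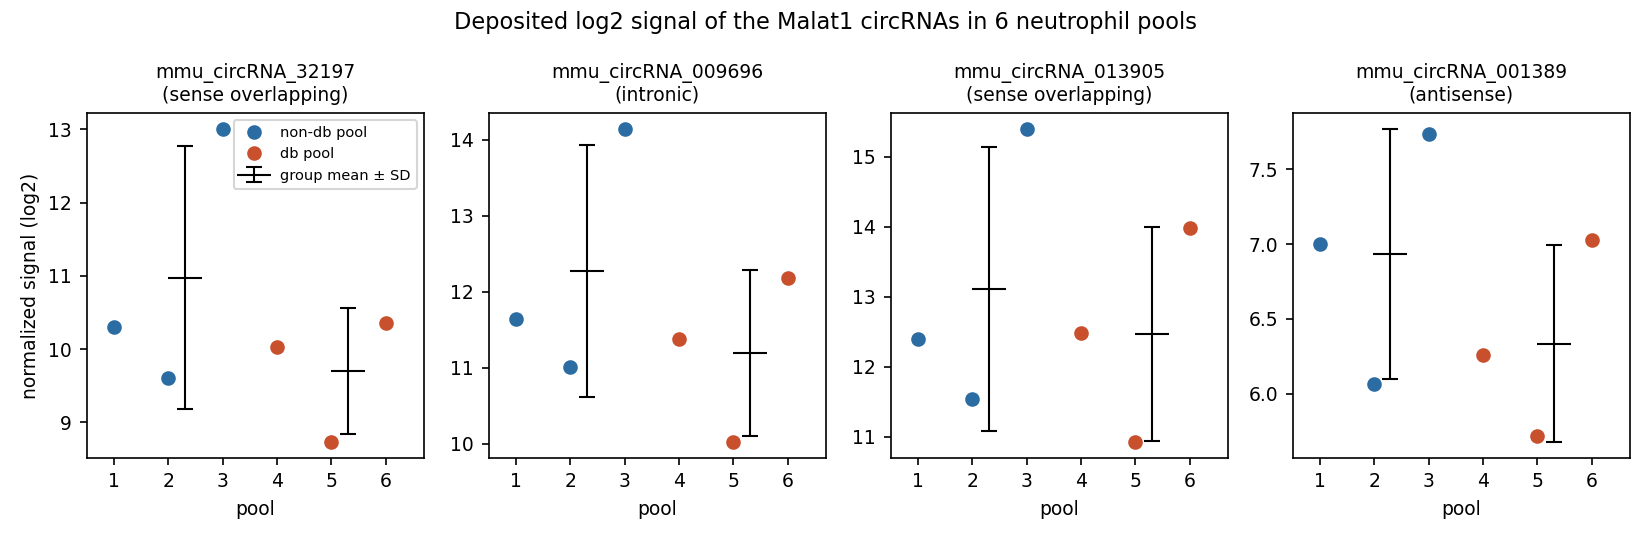
Deposited log2 signal (vertical axis, its own scale in each panel) of the 4 Malat1 circRNAs in each pool (horizontal axis), with non-db pools in blue, db pools in orange, and the group mean ± SD (n = 3) in black. In every panel pool 3 is the highest and pool 5 the lowest, and pool 6 lies above pools 1 and 2.

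All 4 passed the filter on dim probes, as did 12722 of the 14236. Among the probes kept, 246 (1.93%) were more than 1.5-fold lower in db pools, which is the background to the 4 of 4. Since the lists were defined by this difference, nothing is read from that contrast. Of the circRNAs listed as lower, pool 6 lay above both pool 1 and pool 2 for 21 of 247, and the Malat1 circRNAs are 4 of the 21. Listing as lower in db works against this order, and it was not counted over all probes kept.

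The span over the 6 pools was 19.4-fold for mmu_circRNA_32197, 17.4-fold for mmu_circRNA_009696, 22.3-fold for mmu_circRNA_013905 and 4.06-fold for mmu_circRNA_001389. The median span of the probes kept was 1.47-fold. At least 4.12 log2 units, the span of mmu_circRNA_009696, was reached by 22 probes (0.173%), the 3 sense overlapping and intronic Malat1 circRNAs included, and the smaller span of mmu_circRNA_001389 by 338 probes (2.66%). Pool 3 lay above the mean of the other 5 pools by 3.20 log2 units for mmu_circRNA_32197, 3.14 for mmu_circRNA_013905, 2.90 for mmu_circRNA_009696 and 1.32 for mmu_circRNA_001389. These first 3 values were the largest of all 12722 probes kept (0.0236%), and 78 probes (0.613%) deviated by at least as much as mmu_circRNA_001389. The median deviation of pool 3 was -0.05. Pool 3 is a non-db pool, so listing as lower in db favours a high value in it.

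**Figure D2:**
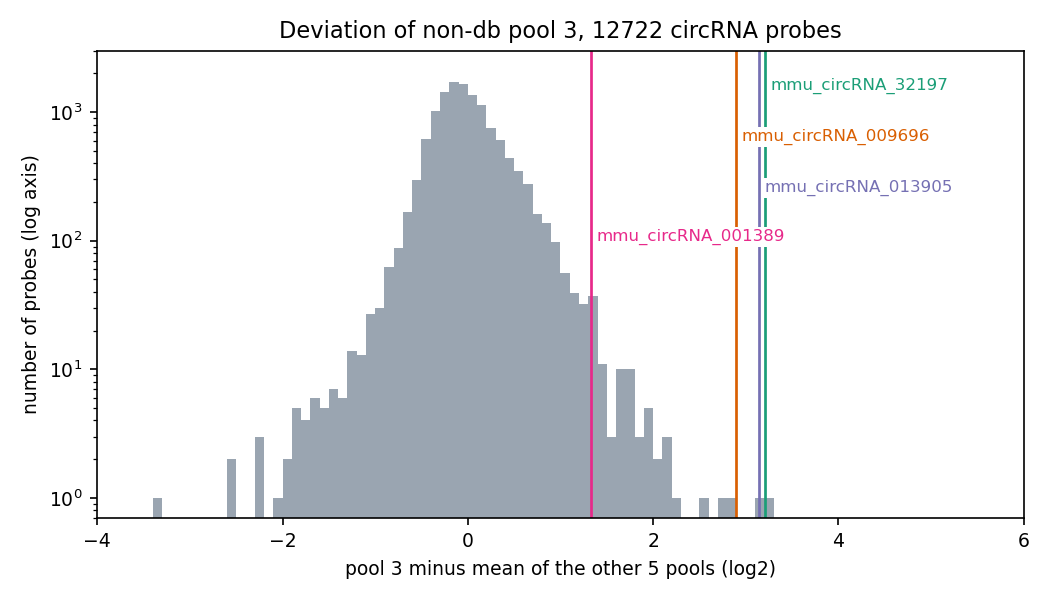
Number of circRNA probes (vertical axis, log scale) by the log2 signal of non-db pool 3 minus the mean of the other 5 pools (horizontal axis), for the 12722 probes kept, with vertical lines at the 4 Malat1 circRNAs. Lines at 2.90, 3.14 and 3.20 mark the extreme right of the distribution, and the antisense member stands at 1.32.

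Pool 3 was the highest pool for 21.6% and pool 5 the lowest for 9.87% of the probes kept, and for 38.6% and 11.4% of the 246 that were listed as lower and kept. Pool 3 highest, pool 6 second and pool 5 lowest, as in the 4 Malat1 circRNAs, was found for 145 probes (1.14%), and for 9 of these 246 (3.66%). The full order shared by 3 of the 4 was found for 35 probes (0.275%). The share of circRNA spots that the scanner called well above background fell from pool 3 through pools 6, 4 and 2 to pool 5 on the 5 arrays with complete files, as the deposited values did for 4 of 4 members, with 91.4% for pool 3, then 91.3% for pool 6, 91.0% for pool 4, 89.1% for pool 2 and 80.7% for pool 5. Its part in the order of the Malat1 circRNAs was not tested.

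Across the 6 pools, Pearson's r between members lay between 0.917 and 0.987 and Spearman's rho between 0.943 and 1. With each group's mean removed, r was between 0.896 and 0.995, so the members also moved together within the groups. Without pool 3, r over the remaining 5 pools was between 0.850 and 0.973. These are descriptions over 6 arrays, and the 4 values of an array share its RNA, its labelling and its scaling. circRNAs of a single locus can also share sequence, and the probe sequences were not analysed here.

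The antisense circRNA followed the sense ones, with r of 0.917 to mmu_circRNA_32197, 0.947 to mmu_circRNA_009696 and 0.931 to mmu_circRNA_013905. The distances between members were not constant. mmu_circRNA_013905 lay between 1.93 and 2.45 log2 units above mmu_circRNA_32197 in pools 1 to 5 and 3.63 above it in pool 6. mmu_circRNA_009696 lay between 1.13 and 1.40 above it in pools 1 to 5 and 1.82 above it in pool 6. In the deposited values of pool 6, then, these circRNAs were raised unequally, and mmu_circRNA_013905 the most. In the scanner signals, pool 6 was 4.94-fold above pool 2 for mmu_circRNA_013905, 2.50-fold for mmu_circRNA_32197 and 2.41-fold for mmu_circRNA_009696. Against pool 2, the extra rise of mmu_circRNA_009696 over mmu_circRNA_32197 was thus not seen there. Against pool 5 it was, with pool 6 higher by 4.13-fold for mmu_circRNA_009696 and 3.42-fold for mmu_circRNA_32197. mmu_circRNA_001389 minus mmu_circRNA_32197 was -5.27 log2 units in pool 3 and between -3.77 and -3.01 in the other pools. Only the changes in these distances are read, since levels of different probes cannot be set against each other.

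The scanner's own intensities, before any normalization between arrays, had the same extremes. For mmu_circRNA_32197 the processed signals of pools 2 to 6 were 627, 4806, 878, 458 and 1565. It was also the only member within the part of the pool 1 file that was deposited, with 1498. For mmu_circRNA_009696 the signals of pools 2 to 6 were 1993, 8325, 1874, 1166 and 4809. For mmu_circRNA_013905 they were 3042, 23576, 3710, 2157 and 15014, so pool 6 was 6.96-fold above pool 5 although both are db pools. For mmu_circRNA_001389 they were 38.6, 193, 55.1, 30.2 and 123. Its spots were the faintest of the 4, yet flagged well above background on all 5 arrays. Their uncorrected median signal was between 58 in pool 2 and 209 in pool 3, and the median local background between 13 and 19. No member spot was saturated. The 75th percentile of all circRNA probes lay between 112 in pool 2 and 150 in pool 6, a far smaller spread than that of any member.

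**Figure D3:**
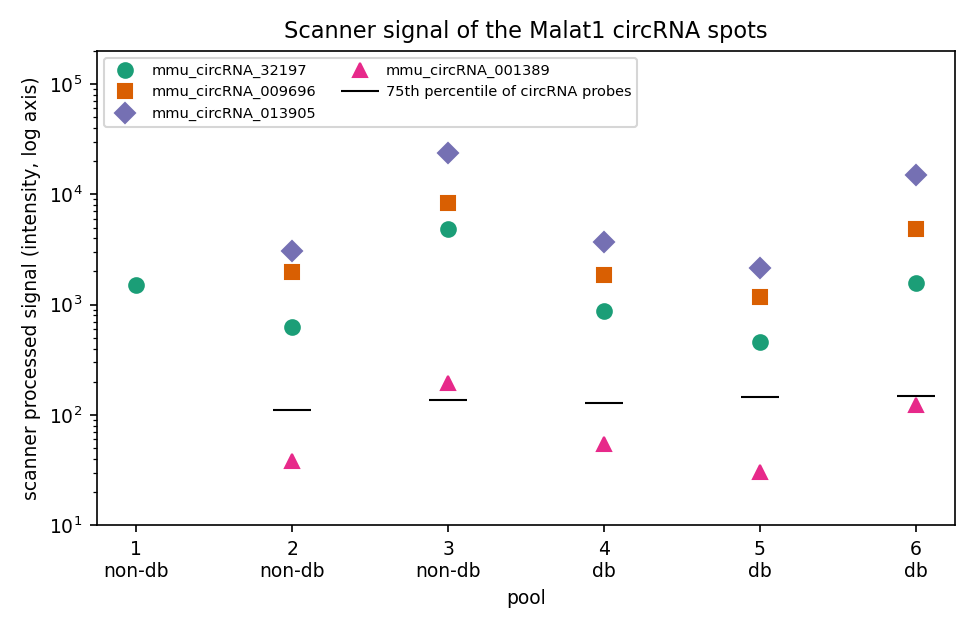
Scanner processed signal (vertical axis, intensity on a log scale) of the 4 Malat1 circRNA spots in each pool (horizontal axis), with black bars at the 75th percentile of all circRNA probes of an array with a complete file. All 4 peak in pool 3 and are lowest in pool 5, while the bars stay between 112 and 150; pool 1 has a spot for mmu_circRNA_32197 alone.

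The highest-to-lowest ratio of the scanner signal was 10.5 for mmu_circRNA_32197, 7.14 for mmu_circRNA_009696, 10.9 for mmu_circRNA_013905 and 6.40 for mmu_circRNA_001389. The sense members thus spanned less in the scanner signal of pools 2 to 6 than in the deposited values, while the antisense member spanned more. In both, pool 3 was highest and pool 5 lowest for all 4.

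Linear RNA left after RNase R was followed with the array's linear transcript probes, of which 39 of 50 were well above background on all 5 arrays. Relative to the 75th percentile, their median deviation from each probe's own mean for pools 2 to 6 was 0.05, -0.24, 0.24, -0.03 and 0.01 log2 units. Pool 3, where the Malat1 circRNAs were highest, was the lowest pool for 16 of the 39 and the highest for 6. The part of linear RNA in the Malat1 pattern was not tested. Of the 44 that matched a RefSeq gene, 0 were Malat1.

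The size of the group difference depended on pool 3. Without it, the log2 difference was -0.25 for mmu_circRNA_32197, -0.14 for mmu_circRNA_009696 and -0.20 for mmu_circRNA_001389, and that of mmu_circRNA_013905 turned to 0.50. Of the 4, 0 were then 1.5-fold lower in db pools, against 358 of the 12722 probes kept. Leaving out pool 5, the lowest, also moved each difference upward, and that of mmu_circRNA_013905 past 0. The log2 differences were then -0.78, -0.49, 0.12 and -0.29 for mmu_circRNA_32197, mmu_circRNA_009696, mmu_circRNA_013905 and mmu_circRNA_001389. Leaving out pool 6, the highest db pool, widened them to -1.59, -1.57, -1.41 and -0.95, and leaving out pool 2 widened them to -1.95, -1.70, -1.44 and -1.03. mmu_circRNA_001389 also fell short of 1.5-fold without pool 1 (-0.57) and without pool 4 (-0.56).

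**Figure D4:**
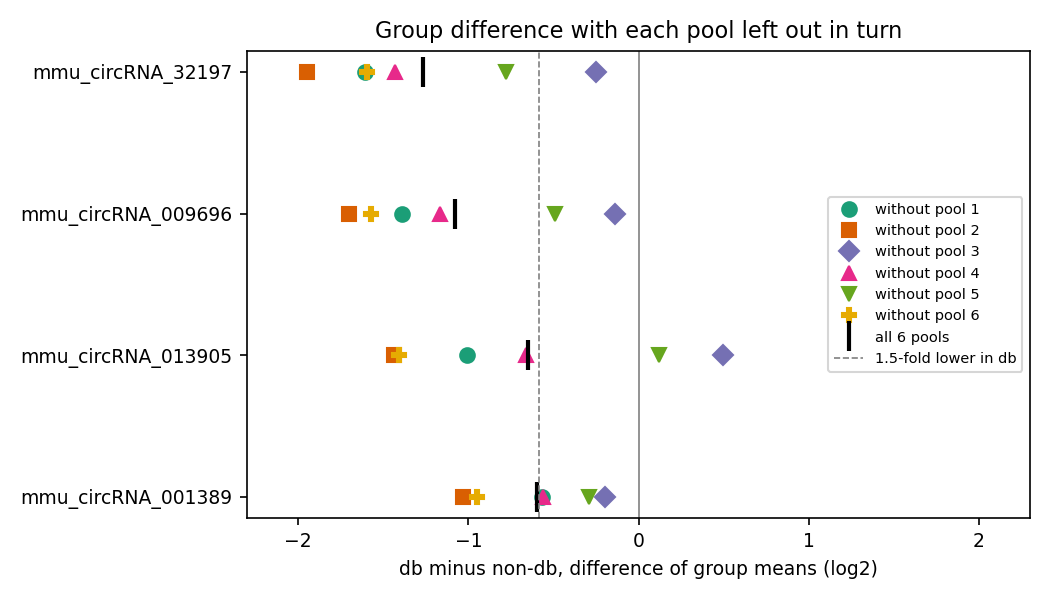
Difference of group means, db minus non-db (horizontal axis, log2), for each Malat1 circRNA (vertical axis) with all 6 pools (black bar) and with each pool left out (coloured symbols). Without pool 3 the symbols lie between -0.25 and 0.50, right of the dashed line that marks 1.5-fold lower in db.

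The headers of the scanner files place pools 1 and 4 in a scan session of their own, apart from pools 2, 3, 5 and 6. Within the former session, the log2 difference of pool 4 from pool 1 was -0.27 for mmu_circRNA_32197, -0.27 for mmu_circRNA_009696, 0.091 for mmu_circRNA_013905 and -0.74 for mmu_circRNA_001389. Within the latter it was -1.77, -1.48, -1.02 and -0.53 in the same order. The difference between sessions did not choose the members and could be tested, in a model with the group. The session of pools 1 and 4 was lower by 0.26 (standard error 0.97), 0.33 (0.97), 0.52 (1.23) and 0.01 (0.53) log2 units for mmu_circRNA_32197, mmu_circRNA_009696, mmu_circRNA_013905 and mmu_circRNA_001389. The adjusted p-values in limma were 0.958, 0.942, 0.926 and 0.997. Of the 12722 probes, 0 (0%) had an adjusted p under 0.05 in limma, 1006 had an unadjusted p under 0.05, and limma with trend and robust settings gave 0 and 966. The barcode field in the scanner headers begins with 1 for pools 1 to 4 and with 2 for pools 5 and 6. All non-db pools thus share the former, and what the number stands for is not known here. With that number as a block, which compares pool 4 with pools 1 to 3, the log2 differences were -0.94, -0.89, -0.63 and -0.68.

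Among other host genes, 7 had at least 3 circRNAs listed as lower, 24 circRNAs in all, and these are the sets most like that of Malat1. They were selected on the same contrast, so their patterns are set beside those of the Malat1 circRNAs without a test. For Actr2, which encodes a subunit of the actin-nucleating Arp2/3 complex, pool 3 was the highest and pool 5 the lowest for 3 of 3, as for Malat1. Its pool 6, however, lay under every non-db pool for 3 of 3, while for Malat1 it did so for 0 of 4. For Hist1h1c, a linker histone gene, pool 3 was the highest and pool 6 the lowest for 3 of 3. For the 4 circRNAs of the locus XLOC_010800, pool 3 was the highest and pool 4 the lowest. Pool 6 lay under every non-db pool for all circRNAs of Crebrf (5), Ezh2 (3), which encodes the histone methyltransferase of Polycomb complex 2, Usp3 (3), a deubiquitinase gene, and Ankib1 (3). Over the 24, pool 6 was above both pool 1 and pool 2 for 1 and under every non-db pool for 21. Of all 247 listed as lower, 80 had pool 6 under every non-db pool, so its absence at Malat1 is shared by most listed circRNAs.

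**Figure D5:**
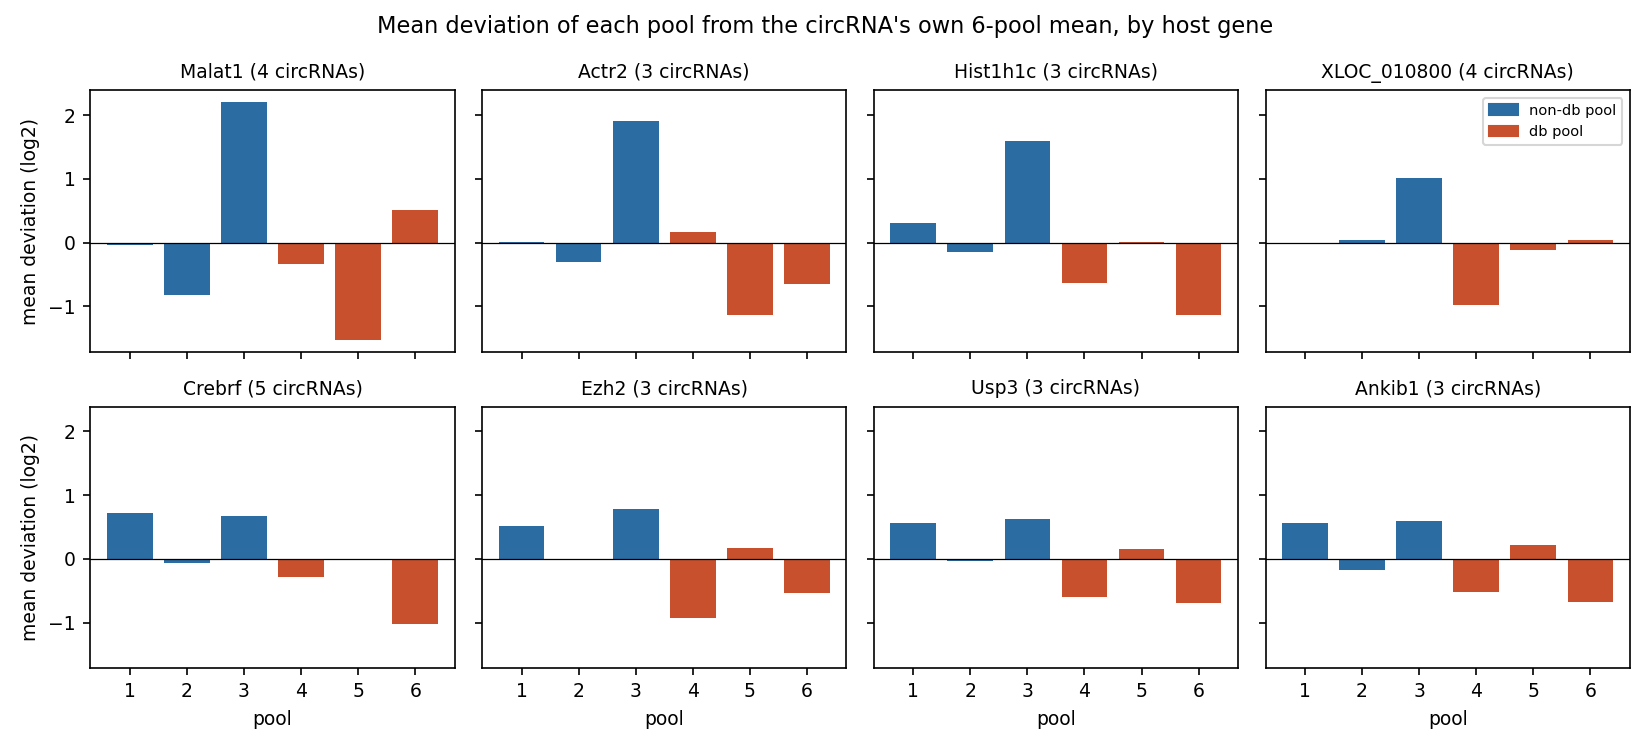
Mean deviation of each pool (horizontal axis) from the circRNA's own mean over 6 pools (vertical axis, log2), averaged over the listed circRNAs of Malat1 and of the 7 other host genes with at least 3 listed as lower, in blue for non-db and orange for db pools. Malat1 has the tallest bar in pool 3 (2.20) and the deepest in pool 5 (-1.53), and its bar in pool 6 is 0.51.

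Of the other listed circRNAs of chromosome 19, 9 were listed as lower and 3 as higher. Of the 9, 9 had their lowest signal in pool 4 and 0 in pool 5, and pool 3 was the highest for 1. Over all 247 listed as lower, 178 were lowest in pool 4 and 28 in pool 5, so nothing particular to the chromosome is read from these counts. Of 7 long non-coding host genes looked for, Rian and Mirg, both of the imprinted Dlk1-Dio3 region, had 1 listed circRNA each. Both were listed as higher, with log2 differences of 0.90 for mmu_circRNA_000113, antisense to Rian, and 0.91 for mmu_circRNA_25839 of Mirg, and both were highest in pool 4. Neat1, Xist, Meg3, Kcnq1ot1 and Gas5 had none.

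The named circRNAs whose values over the 6 pools were most like those of the Malat1 circRNAs came from other chromosomes. For mmu_circRNA_32197 they were mmu_circRNA_23263 of Cyfip2 (r = 0.999), a WAVE complex gene, mmu_circRNA_41662 of Chd2 (0.991), a chromatin remodeller gene, and mmu_circRNA_017273 of Tnrc6b (0.988), which encodes a scaffold of miRNA silencing. The circRNAs of Chd2 and Cyfip2 were also among the nearest 3 of each of the other members. mmu_circRNA_23263 measured 8.28, 7.87, 9.82, 8.12, 7.43 and 8.41 log2 units in pools 1 to 6, with its extremes in the same pools as the Malat1 circRNAs, over a smaller span. For mmu_circRNA_009696 the third was mmu_circRNA_27735 of Ptk2b (0.956), a tyrosine kinase gene, and for mmu_circRNA_001389 it was mmu_circRNA_23884 of Taf15 (0.926), an RNA-binding protein gene. The nearest to mmu_circRNA_013905 was mmu_circRNA_30496 of Gabbr1 (0.963), a GABA receptor subunit gene, with 10.28 in pool 3 and 9.61 in pool 6 against 8.10 or less in the other pools. All of these were listed as lower, which the search made likely. Only listed circRNAs have names, and the members they resemble were themselves listed as lower.

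Among the probes kept, apart from the members, an r of at least 0.9 was reached by 310 (2.44%) with mmu_circRNA_32197, 238 (1.87%) with mmu_circRNA_009696, 166 (1.31%) with mmu_circRNA_013905 and 127 (0.999%) with mmu_circRNA_001389. The lowest r of mmu_circRNA_32197 to another member, 0.917, was matched or exceeded by 230 of 12718 probes (1.81%). For mmu_circRNA_009696 it was 0.947, reached by 79 (0.621%). For mmu_circRNA_013905 it was 0.931, reached by 99 (0.778%), and for mmu_circRNA_001389 0.917, reached by 79 (0.621%). The median r of the probes kept was between -0.10 and -0.04 for the 4.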

How the data were processed

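RNA of 3 db and 3 non-db pools was measured on 1-colour circRNA arrays. The intensity values deposited per array came from Agilent Feature Extraction 11.0.1.1, with no normalization between arrays. The log2 values deposited for the whole series are the authors' normalized signal, and their submission notes name limma, with no method given in the sources used here. The log2 values were used, since the scanner file of pool 1 held 2199 of 14236 circRNA probes. The filter on dim probes asked for the scanner's well-above-background flag on 3 or more of the other 5 arrays. As the files hold no circRNA names, a probe was named where its fold equalled a listed one within 0.001%. All 4 members matched a single probe, so their folds equal the listed ones by construction. The members, gene lists and comparisons were chosen with earlier results of these data known. Named beside the members were listed circRNAs of hosts with at least 3 rows listed as lower, those of long non-coding hosts, and the 3 named circRNAs with the highest r to each member, leaving out chromosome 18. The listed fold changes and p-values are the authors' own comparisons and are not reported.

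Group differences are differences of mean log2 values with SD. The standard error was computed from both SDs. The scan session was tested with limma 3.58.1 in R 4.3.3 (lmFit and eBayes, group and session in the model, two-sided, Benjamini-Hochberg over 12722 probes). It was first tested on simulated data. Tried as alternatives were scaling of scanner values to the 75th percentile, their quantile normalization, normexp (offset 50, on the median spot signal), filters, each pool left out, medians and linear means, and the scan session. Normexp and the other scanner settings used pools 2 to 6. The number of arrays limits the precision. Each pool is a separate sample per the labels, which do not say how far sample handling adds to the spread between pools. Figures were drawn with matplotlib 3.10.9.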

Additional observations from a re-analysis of the deposited data

How the results depend on the processing

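The group differences of mmu_circRNA_32197, mmu_circRNA_009696 and mmu_circRNA_001389 stayed negative under all 16 alternatives run, between -1.95 and -0.25, -1.70 and -0.14, and -1.03 and -0.20 log2 units. Leaving out single pools gave these same ranges. The members were chosen as lower by this difference, so its sign is a description and lends no support. The scan session as a block left every difference unchanged, since each session held as many db as non-db pools. mmu_circRNA_013905 stayed negative in 12 of 16. It reversed to 0.50 without pool 3, 0.12 without pool 5, 0.091 with group medians and 0.091 within the scan session of pools 1 and 4, and its range with each pool left out was -1.44 to 0.50. The group medians are pools 1 and 4 for all 4 members, so the last 2 settings give a single value for each member. On scanner signals, which lack pool 1, scaling to the 75th percentile gave the 4 members log2 differences of -1.21 to -0.75, and normexp left 3 of 4 past 1.5-fold lower, with -0.43 for mmu_circRNA_001389. Of all probes kept, 219 were past it with normexp. Group medians left 1 of 4 past it, and all probes were not counted under that setting. In scanner signals all 4 were highest in pool 3 and lowest in pool 5 under each of the scalings run. The lowest r between members was 0.917, and 0.850 without pool 3, which was added after seeing the data, as was the block on the first barcode number. The session differences of the 4 had no adjusted p under 0.05 in limma with any single pool left out, and ranged from -1.01 to 0.58 for mmu_circRNA_32197, -0.93 to 0.43 for mmu_circRNA_009696, -1.27 to 0.39 for mmu_circRNA_013905 and -0.38 to 0.33 for mmu_circRNA_001389.

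The background counts of probes past 1.5-fold, 246 lower and 206 higher (45.6% higher), ranged from 102 to 485 lower and from 66 to 457 higher with each pool left out, lowest without pool 4 and highest without pool 6. The lower count was also 390 without pool 2 and 399 without pool 5. Over pools 2 to 6 in scanner signals they were 1261 lower and 321 higher (20.3% higher) when scaled to the 75th percentile. Quantile normalization gave 830 and 590, and normexp before it gave 219 and 155. The cause was not tested. No paired analysis of the groups is given, because the labels of the db and non-db pools carry no shared numbers. A paired t p, with the pools taken in order, served only to break ties between probes in naming.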
